A study of Mus musculus with 9 samples.

Results

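Nuclear transport receptors and nucleoporins are the proteins that move cargo between cytoplasm and nucleus and the proteins that build the channel through which it moves. Their genes were taken by symbol from the protein-coding rows of the count files: Kpna, Kpnb, Ipo, Xpo, Tnpo or Nup followed by a digit, and Xpot, Cse1l, Ranbp2, Tpr, Ndc1 and Aaas. This gave 49 genes of the 49315 listed, of which 24 encode receptors and 25 encode pore proteins. No value decided which genes entered, but the family was proposed with the contrast of cotadutide and vehicle mice in view. Fold changes and calls of its members are therefore given as a description of that contrast and not as independent evidence about it.

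The RNA came from brown adipose tissue of male diet-induced obese mice of the C57Bl/6J strain, which ate food with 60% fat, were housed singly and were not kept at thermoneutrality. The cotadutide group was 5 mice injected under the skin each day for 28 days with cotadutide, a peptide that activates the glucagon-like peptide 1 and glucagon receptors. The vehicle group was 4 mice on the same diet and schedule that received vehicle. The mice were 14 weeks old, with 3 weeks of acclimation, and each gave 1 polyA RNA library. Library totals were 15.9 ± 3.58 M counts (M, 1000000; SD, n = 5) for cotadutide and 20.8 ± 4.05 M counts (SD, n = 4) for vehicle.

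In the textbook picture, an importin alpha adaptor holds the nuclear localization signal of a cargo and is itself carried inward by importin beta 1, the product of Kpnb1. Other beta family receptors bind their cargo directly. In the nucleus, Ran loaded with GTP opens import complexes and closes export complexes, and the exportin CAS, the product of Cse1l, returns importin alpha to the cytoplasm. The pore is a ring of scaffold complexes, of which the Y complex forms the outer rings, with a central channel of unfolded phenylalanine-glycine repeats, a basket on the nuclear side and filaments on the cytoplasmic side.

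Under cotadutide, 9 of 23 tested receptor genes were called lower, all of them importin alpha genes or beta family import receptors, and 2 of 23 tested pore genes were. The difference between receptor classes was not tested. The 46 members with enough counts to be tested ranged from 3.69 to 96.2 CPM as means over the 9 libraries (CPM, counts per 1000000 counts of the scaled library total). By edgeR's quasi-likelihood test, adjusted over all 14747 genes tested with a threshold of 0.05, 11 members were lower in cotadutide mice and 0 were higher. Over all genes tested, 9.34% were lower, 9.31% higher and 18.7% either. Since the contrast was known when the family was proposed, the share of 23.9% among the tested members is given only as a description. The 11 lower members were 4 of 5 tested importin alpha genes, 5 of 11 beta family import receptors, 0 of 7 exportins and 2 of 23 tested pore genes. The median log2 fold change of cotadutide over vehicle was -0.13 for the 46 members and 0.00315 for all genes tested, and the members' median was -0.07 with a trend of counts with gene length removed. Groups did not overlap for 10 members lower under cotadutide and for 1 that was higher, against 7.79% lower and 8.06% higher of all genes tested. A log2 fold change below 0 was found for 33 of the 46, against 49.7% of all genes, and an unadjusted p under 0.05 for 18, against 35.7%. The number called lower was 13 by DESeq2 (0 higher; 11.6% of all genes lower and 11.3% higher), 11 by limma-voom (0 higher; 9.34% lower and 10.2% higher) and 8 once that length trend was removed (1 higher; 9.17% lower and 8.27% higher). It was 0 with a score of muscle markers, described below, as a covariate (0% of all genes lower). With the mouse number as a block, on mice 1 to 4 of each group, it was 5 (6% of all genes lower). With 8 mice in place of 9, the number of members called lower ranged from 1 to 13, as the share of all genes called lower ranged from 0.621% to 11.9%. It was 5 without cotadutide mouse 2 (2.38% of all genes) and 6 without cotadutide mouse 3 (5.61%). When a vehicle mouse was left out, it was 1 for mouse 1 (0.621%), 2 for mouse 2 (0.708%), 5 for mouse 3 (3.17%) and 13 for mouse 4 (10.7%). Bulk RNA cannot tell fewer cells of a type from less RNA per cell.

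**Figure D1:**
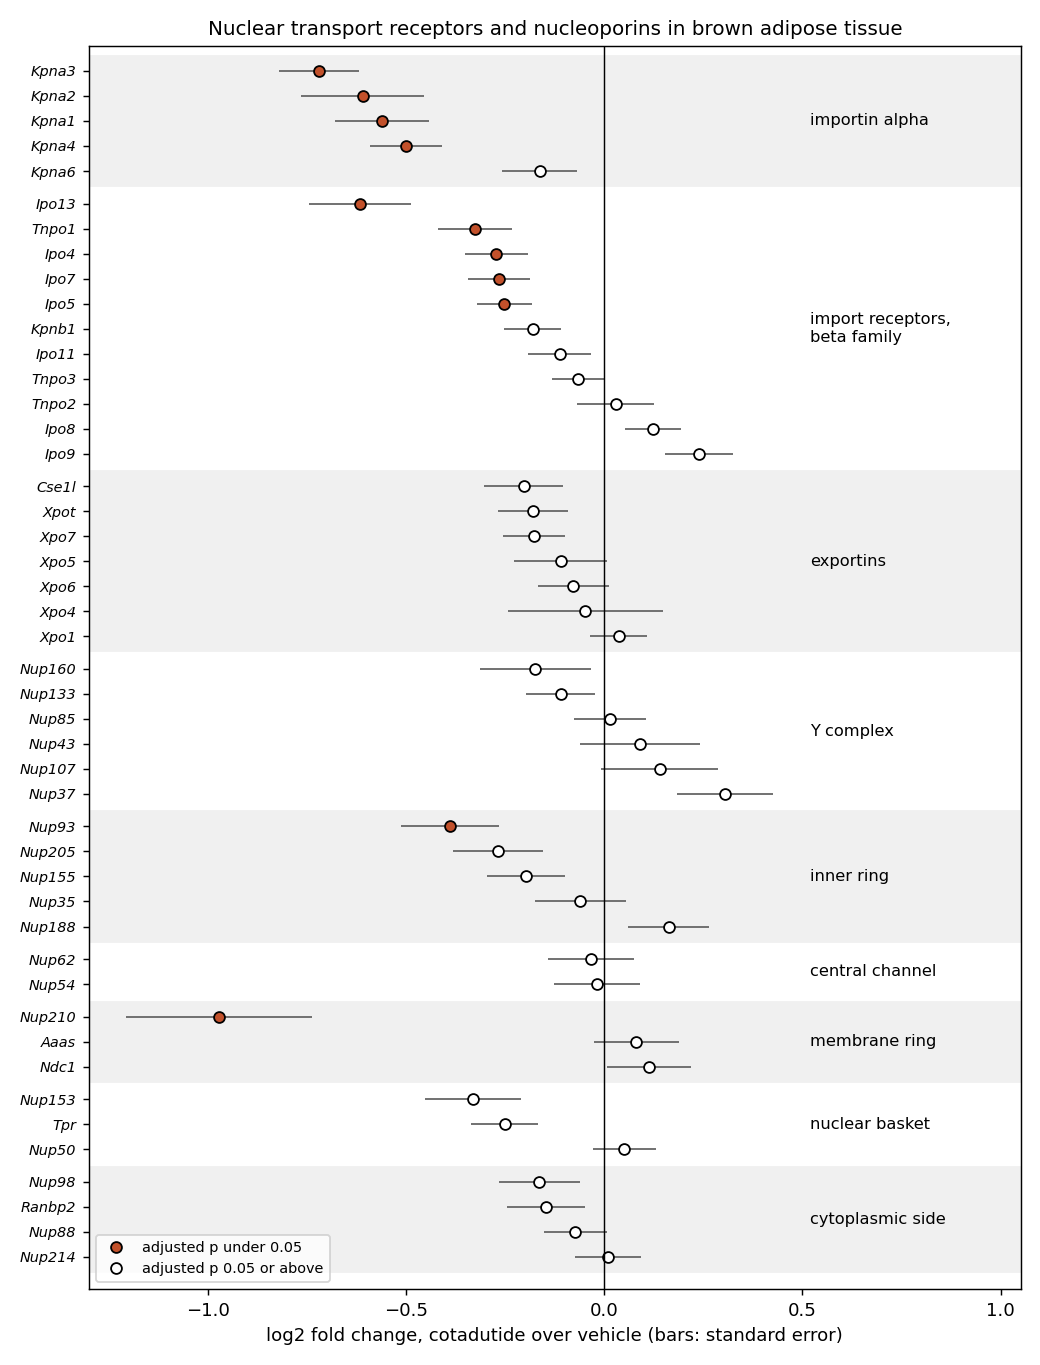
Log2 fold change of cotadutide over vehicle for the 46 tested members, grouped by role, with bars for the standard error. Filled points passed the adjusted p threshold of 0.05; 9 of the 11 are import receptors or adaptors, and the other 2 are Nup93 and Nup210.

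Promoter windows were found for 39 of the 49 members in a RefSeq table of the GRCm38.p6 build (250 bases before to 50 after the start, 46 windows in all). Without an entry were Kpna1, Kpna3, Kpna6, Cse1l, Xpo4, Xpo7, Nup35, Nup43, Nup85 and Nup210l. The windows below are shown because they belong to the lower members with the largest folds that had an entry, Nup210, Ipo13, Kpna2 and Kpna4, and, for contrast, to Nup62, whose log2 fold change was -0.03. Capitals mark matches, on either strand, to the GC box with letters GGGCGG, the CCAAT box, the TATA box with letters TATAAA, the cyclic AMP response element with letters TGACGTCA, the NRF1 palindrome and the E box with letters CAGCTG. No match overlapped another in these windows.
Kpna4: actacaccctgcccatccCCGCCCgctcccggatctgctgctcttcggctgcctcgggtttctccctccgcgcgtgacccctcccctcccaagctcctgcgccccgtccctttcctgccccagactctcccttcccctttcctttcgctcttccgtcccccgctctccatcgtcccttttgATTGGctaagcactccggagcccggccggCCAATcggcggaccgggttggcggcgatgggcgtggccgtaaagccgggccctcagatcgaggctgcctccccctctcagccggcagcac
Kpna2: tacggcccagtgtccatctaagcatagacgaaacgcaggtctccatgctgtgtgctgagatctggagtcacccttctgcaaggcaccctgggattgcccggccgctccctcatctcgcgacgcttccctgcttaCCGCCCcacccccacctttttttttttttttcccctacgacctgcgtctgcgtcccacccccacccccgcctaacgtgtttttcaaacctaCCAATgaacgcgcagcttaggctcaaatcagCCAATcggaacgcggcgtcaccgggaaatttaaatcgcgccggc
Ipo13: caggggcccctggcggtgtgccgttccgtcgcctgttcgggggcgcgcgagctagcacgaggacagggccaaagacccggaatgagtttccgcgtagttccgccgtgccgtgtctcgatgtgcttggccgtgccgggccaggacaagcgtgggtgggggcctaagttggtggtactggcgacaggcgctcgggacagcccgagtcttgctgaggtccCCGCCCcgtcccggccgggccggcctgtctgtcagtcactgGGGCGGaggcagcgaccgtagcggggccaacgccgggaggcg
Nup210: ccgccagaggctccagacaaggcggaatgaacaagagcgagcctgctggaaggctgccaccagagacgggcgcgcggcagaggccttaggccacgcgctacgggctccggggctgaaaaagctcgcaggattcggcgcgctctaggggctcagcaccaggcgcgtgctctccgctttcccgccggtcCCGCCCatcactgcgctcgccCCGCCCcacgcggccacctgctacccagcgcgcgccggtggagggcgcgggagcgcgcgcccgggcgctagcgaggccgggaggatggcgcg
Nup62: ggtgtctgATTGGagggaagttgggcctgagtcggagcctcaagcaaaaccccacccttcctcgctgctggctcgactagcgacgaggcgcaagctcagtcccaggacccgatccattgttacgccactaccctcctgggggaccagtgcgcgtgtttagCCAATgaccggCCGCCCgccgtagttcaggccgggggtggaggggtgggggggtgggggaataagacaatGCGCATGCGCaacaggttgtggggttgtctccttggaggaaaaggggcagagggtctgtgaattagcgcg

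The windows lie at chr3:69127043-69127342, chr11:106999476-106999775, chr4:117914950-117915249 and chr6:91116777-91117076 on the minus strand, and at chr7:44815838-44816137 on the plus strand. The Kpna4 and Kpna2 windows each held 1 GC box and 2 CCAAT boxes, those of Ipo13 and Nup210 each held 2 GC boxes and no CCAAT box, and that of Nup62 held 1 GC box, 2 CCAAT boxes and the NRF1 palindrome. Across members, 63.0% of windows held a GC box and 52.2% a CCAAT box, against 35.7% and 37.4% of all 32851 windows. The median GC content was 64.0% in member windows and 52.7% in all windows. The palindrome occurred in 4 member windows, those of Nup107, Nup50, Nup62 and Xpo5, or 8.70% against 0.971% of all windows. None of these 4 genes passed the threshold, where 18.7% of all genes tested were called in either direction. A count of 0 among 4 genes cannot be told apart from such a share. TGACGTCA occurred in 2 member windows, of Nup133 and Nup214 (4.35% against 1.79%). TATAAA occurred in 10.9% against 13.6%, and CAGCTG in 1 member window, that of Ndc1, against 16.3% of all windows. A match describes the letters only.

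Of the 5 tested importin alpha genes, 4 fell under cotadutide. Kpna3 encodes an adaptor that, in human cells, carries NF-kappa-B subunits into the nucleus. Its level was 41.1, 34.4, 29.6, 37.9 and 42.7 CPM in cotadutide mice 1 to 5, and 59.0, 59.1, 62.04 and 64.5 CPM in vehicle mice 1 to 4. Each cotadutide mouse was below each vehicle mouse, and the gap between the groups was wider than the range within the vehicle group. The fold was 1.65 times lower (log2 fold change -0.72, SE 0.10, edgeR adjusted p = 0.0122). The call held in each of the 9 fits with 1 mouse left out. Kpna3 (ENSMUSG00000021929) lies on chromosome 14 from 61365186 to 61439947 in the mm10 coordinates of the files.

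Kpna4 encodes the closest relative of the Kpna3 product. It stood at 71.4, 64.4, 62.7, 76.6 and 81.9 CPM in cotadutide mice, and at 107.7, 95.9, 104.1 and 96.5 CPM in vehicle mice. The groups did not overlap, and Kpna4 was 1.42 times lower (log2 fold change -0.50, SE 0.09, edgeR adjusted p = 0.0147). Without vehicle mouse 1 it missed the threshold (edgeR adjusted p = 0.0518). Kpna4 lies on chromosome 3 from 69067149 to 69127113.

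Kpna1, another adaptor of the importin alpha family, showed the tightest vehicle group. It had 45.2, 36.9, 33.2, 49.2 and 51.5 CPM in cotadutide mice and 63.2, 62.8, 64.0 and 64.8 CPM in vehicle mice. It was 1.48 times lower (log2 fold change -0.56, SE 0.12, edgeR adjusted p = 0.0171), and the call held in 7 of the 9 fits with 1 mouse left out, the exceptions being those without vehicle mouse 1 or 2. Mice 2 and 3 of the cotadutide group had the lowest values for Kpna1, Kpna3 and Kpna4.

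Kpna2, an adaptor known for high expression in dividing cells, was the least abundant of the 4. Its values were 10.6, 6.41, 7.04, 9.96 and 10.6 CPM in cotadutide mice and 13.8, 15.0, 12.7 and 12.9 CPM in vehicle mice. The groups did not overlap (1.53 times lower, log2 fold change -0.61, SE 0.16, edgeR adjusted p = 0.0253), and the call held in 5 of 9 fits with a mouse left out. A processed pseudogene of Kpna2 is annotated, and reads shared with it could be split in an uncertain way. Of the markers of cycling cells, 6 of 7 tested were called lower, where 9.34% of all genes tested were. The summed level of that list was low, at 3.72 to 6.84 CPM in cotadutide mice and 8.21 to 22.2 CPM in vehicle mice. The part of cycling cells in the Kpna2 difference was not tested.

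Kpna6, the nearest relative of Kpna1, was the tested importin alpha gene that did not pass. It had 51.3, 44.6, 48.4, 60.3 and 53.9 CPM in cotadutide mice and 52.7, 55.4, 61.3 and 62.3 CPM in vehicle mice, and the groups overlapped (log2 fold change -0.16, SE 0.09, edgeR adjusted p = 0.238). The remaining member, Kpna7, had 5 counts over the 5 cotadutide libraries and 2 counts over the 4 vehicle libraries. These are 0.0643 CPM (exact 95% Poisson interval 0.0209 to 0.15) and 0.0234 CPM (0.00283 to 0.0845), intervals that cover counting error only, and it was too low to test.

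**Figure D2:**
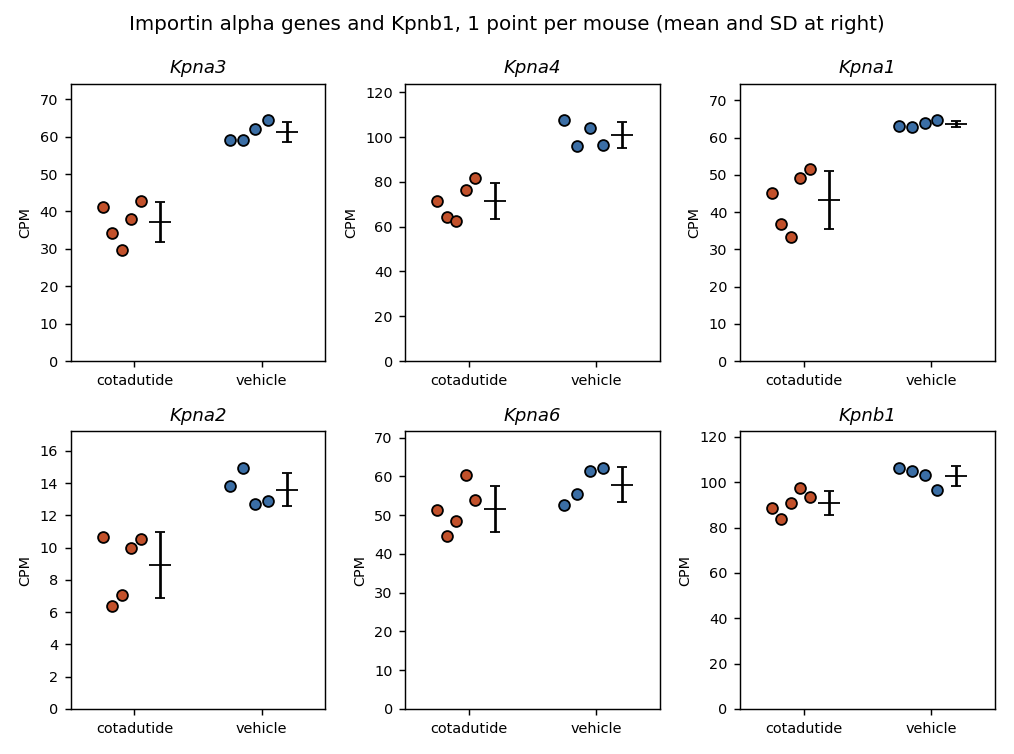
Level of the 5 tested importin alpha genes and of Kpnb1 in CPM, with 1 point per mouse and the mean and SD beside each group (n = 5 cotadutide, n = 4 vehicle). Kpna3, Kpna4, Kpna1 and Kpna2 separate the groups, and Kpna6 and Kpnb1 overlap.

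Levels of different genes were compared per length, as RPKM (CPM per 1000 bases of the gene model in the files). Summed over the 6 genes, importin alpha mRNA was 34.5, 28.7, 27.7, 35.9 and 37.2 RPKM in cotadutide mice, and 46.3, 45.7, 47.6 and 47.7 RPKM in vehicle mice. The highest cotadutide sum was below the lowest vehicle sum, and the ratio of means was 0.70. The composition of that sum follows from the same values and was not tested. Kpna3 made up 27.2 ± 1.61% of it in cotadutide mice (SD, n = 5) and 31.3 ± 0.809% in vehicle mice (SD, n = 4). Kpna6 made up 23.5 ± 1.88% in cotadutide mice and 18.4 ± 1.14% in vehicle mice. Neither share overlapped between the groups. Kpna4 kept an overlapping share, 24.4 ± 0.915% in cotadutide and 24.1 ± 1.46% in vehicle mice, and so did Kpna1, at 15.4 ± 0.873% in cotadutide and 16.0 ± 0.144% in vehicle mice. Per unit of Kpnb1, summed importin alpha was 2.38 ± 0.246 in cotadutide mice and 3.01 ± 0.184 in vehicle mice. Per unit of Cse1l it was 5.66 ± 0.316 in cotadutide mice and 7.03 ± 0.407 in vehicle mice. Neither ratio overlapped. Both reuse the importin alpha values given above, so they are not separate evidence. How often such ratios do not overlap was not computed over all genes. These ratios are of mRNA, and the length column can exceed the length of the mRNA, so the shares depend on the gene models.

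**Figure D3:**
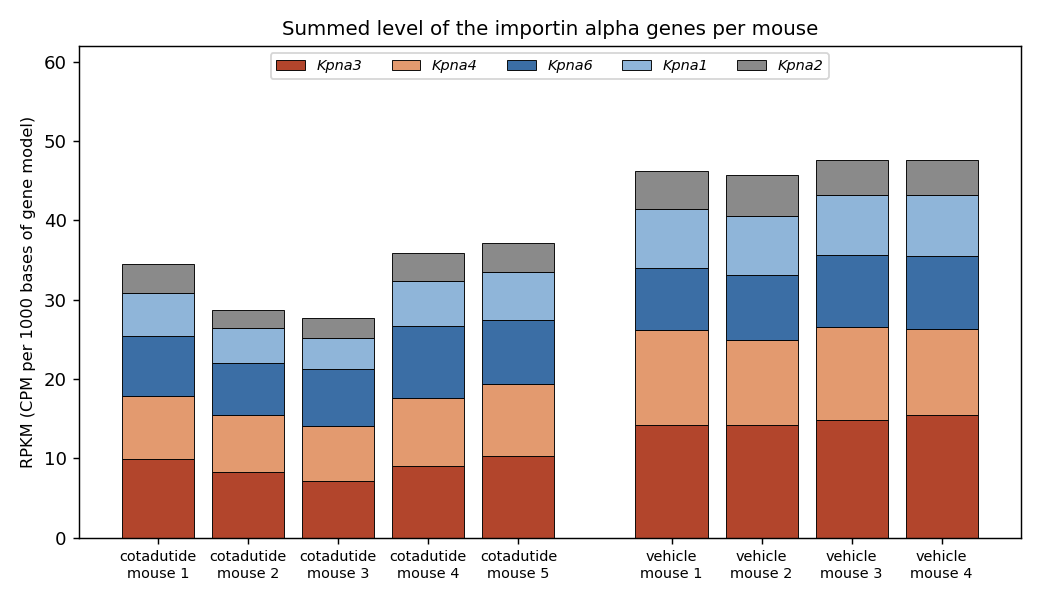
Stacked RPKM of the importin alpha genes in each mouse (Kpna7, near 0, is left out). The 5 cotadutide bars end between 27.7 and 37.2 RPKM and the 4 vehicle bars between 45.7 and 47.7 RPKM.

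Skeletal muscle mRNA was lower in cotadutide mice too. Muscle lies next to brown fat. All 14 muscle markers had a lower mean under cotadutide, where 49.7% of all genes tested had a log2 fold change below 0. Of the 14, 7 were called lower, against 9.34% of all genes tested. The summed level of the list was 5396 to 19973 CPM in cotadutide mice against 22645 to 49524 CPM in vehicle mice. No marker of that list was at 0 counts. A muscle score (mean log2 CPM of the 14 markers, centred on 0) was 0.13, -1.03, -1.79, -0.55 and 0.13 in cotadutide mice 1 to 5, and 0.41, 0.75, 0.51 and 1.45 in vehicle mice 1 to 4. Cotadutide mice 2 and 3 were lowest in the score and in summed importin alpha. Vehicle mouse 4 was highest in both, with a sum of 47.7 RPKM against 47.6 RPKM in vehicle mouse 3. Vehicle mouse 2 scored above vehicle mice 1 and 3 but had the lowest vehicle sum, 45.7 RPKM. With the score as a covariate, edgeR called 0 genes of 14747 and 0 members. The log2 fold change was then -0.41 for Kpna3 (SE 0.10, adjusted p = 0.241), -0.36 for Kpna4 (SE 0.13), -0.24 for Kpna1 (SE 0.13), -0.25 for Kpna2 (SE 0.19) and -0.02 for Kpna6 (SE 0.14). Among the other called members it moved away from 0 for Tnpo1, to -0.44 (SE 0.14), and toward 0 for Ipo13, Ipo5, Ipo7, Ipo4, Nup93 and Nup210. The score does not overlap between the groups, so muscle content and treatment cannot be told apart in these mice.

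**Figure D4:**
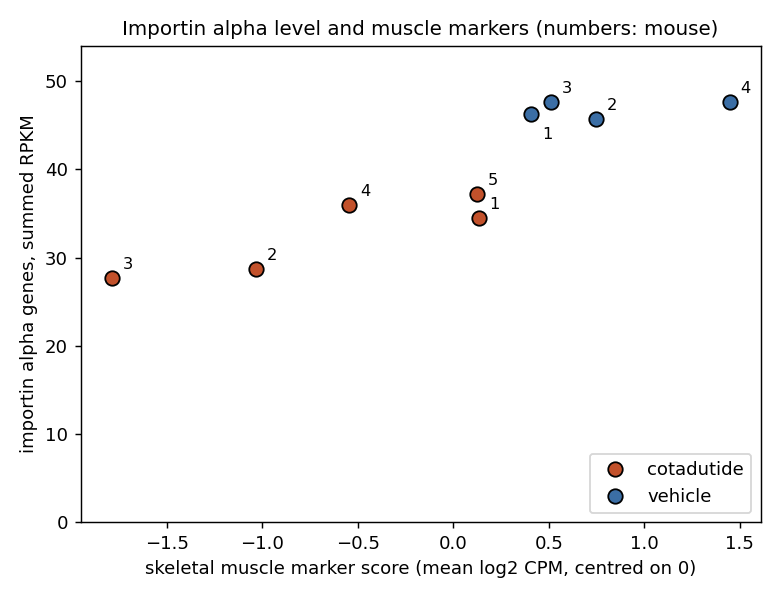
Summed RPKM of the importin alpha genes against the skeletal muscle marker score, with 1 point per mouse and the mouse number beside it. Cotadutide mice 2 and 3 are lowest on both axes, and the 4 vehicle mice lie within 45.7 to 47.7 RPKM over scores of 0.41 to 1.45.

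Markers of other cell types were compared as well, where 9.34% of all genes tested were called lower and 9.31% higher. Macrophage markers had 6 of 10 called lower (summed 215 to 452 CPM in cotadutide mice and 354 to 590 CPM in vehicle mice), and brown adipocyte markers had 4 of 8 called higher (25743 to 33276 CPM in cotadutide mice and 19046 to 23668 CPM in vehicle mice). Those called were Fabp4, Cox8b, Adipoq and Cidea, and Fabp4 alone had a mean of 13476 CPM in cotadutide and 10006 CPM in vehicle mice. Ucp1, the defining gene of brown adipocytes, was abundant in both groups, at a mean of 5886 CPM in cotadutide and 4781 CPM in vehicle mice. Ucp1 was not called (edgeR adjusted p = 0.159), and its groups overlapped. Fibroblast markers had 0 of 5 called, but all 5 log2 fold changes were below 0 (median -0.67, lowest adjusted p = 0.0514, 3 with an unadjusted p under 0.05), with summed levels of 408 to 875 CPM in cotadutide mice and 685 to 1069 CPM in vehicle mice. The T cell list had 0 of 3 tested called by edgeR, with 0 at an unadjusted p under 0.05. Its sum was 19.0 CPM in cotadutide mouse 3, which also had the lowest Kpna1, Kpna3 and Kpna4, against 1.16 to 2.98 CPM in the other cotadutide mice and 1.94 to 3.38 CPM in vehicle mice. Endothelial markers had 1 of 7 called (higher) and nuclear-retained RNAs 1 of 4 (Meg3, lower). Both are near the 18.7% of all genes tested called in either direction. The T cell marker Cd3e was at 0 counts in cotadutide mouse 4, and no other marker in these lists was at 0 in any library. Their part in the members' differences was not tested.

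Among the beta family import receptors, Ipo13 differed most. Its product works in both directions, importing the exon junction proteins Mago and Y14 and exporting the translation factor eIF1A. It had 57.1, 35.8, 38.8, 49.5 and 50.6 CPM in cotadutide mice and 68.7, 68.0, 68.2 and 79.4 CPM in vehicle mice. The groups did not overlap, and Ipo13 was 1.53 times lower (log2 fold change -0.62, SE 0.13, edgeR adjusted p = 0.0167). The call held in 7 of 9 fits with a mouse left out, and cotadutide mice 2 and 3 were again the lowest. Adjusted for the muscle score, the log2 fold change was -0.24 (SE 0.13).

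The 4 other receptors that fell did so by less. Ipo5, a carrier of ribosomal proteins and histones, had the highest mean level per length of the beta family, 15.5 RPKM over all mice. It stood at 68.7, 66.6, 60.2, 68.8 and 64.3 CPM in cotadutide mice and 77.0, 75.3, 82.7 and 78.3 CPM in vehicle mice. The groups did not overlap, with a small spread in each (1.19 times lower, log2 fold change -0.25, SE 0.07, edgeR adjusted p = 0.0309).

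Ipo7, which carries ribosomal proteins and, together with importin beta 1, histone H1, was 1.20 times lower (edgeR adjusted p = 0.0367). Its values were 66.3, 64.4, 66.6, 79.1 and 72.5 CPM in cotadutide mice and 82.3, 81.8, 87.4 and 83.9 CPM in vehicle mice. Ipo4, a carrier of histones H3 and H4, was 1.21 times lower without overlap (29.7 ± 2.52 CPM in cotadutide and 35.9 ± 1.41 CPM in vehicle mice, edgeR adjusted p = 0.0368), and it was named after its values were seen. Of the exon bases of Ipo4, 12.8% also belong to Tm9sf1 on the same strand, so its reads could be split between the genes. Tnpo1 encodes transportin 1, the receptor of many RNA-binding proteins such as hnRNP A1. It had 41.1, 40.7, 46.4, 50.0 and 46.4 CPM in cotadutide mice and 60.8, 54.5, 61.6 and 48.3 CPM in vehicle mice. Vehicle mouse 4 lay below cotadutide mouse 4, so the groups overlapped, although the gene passed (1.25 times lower, log2 fold change -0.33, SE 0.09, edgeR adjusted p = 0.0348). Ipo5, Ipo7, Ipo4 and Tnpo1 each passed in 4 of 9 fits with a mouse left out. Ipo7 and Ipo4 missed the threshold once a trend of counts with gene length was removed (edgeR adjusted p = 0.0896 and 0.0518).

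The other 6 receptors of the beta family did not pass. Kpnb1, the carrier shared by all importin alpha adaptors, had 88.8, 83.7, 90.7, 97.4 and 93.5 CPM in cotadutide mice and 106.5, 105.2, 103.3 and 96.5 CPM in vehicle mice. Only cotadutide mouse 4 exceeded the lowest vehicle mouse (log2 fold change -0.18, SE 0.07, edgeR adjusted p = 0.0968). DESeq2 placed Kpnb1 past the threshold (adjusted p = 0.0469). Ipo9, a carrier of histones H2A and H2B, had the highest fold change of the receptors, with 54.2, 55.3, 69.6, 63.5 and 61.9 CPM in cotadutide mice and 49.8, 49.8, 54.7 and 52.2 CPM in vehicle mice. The groups overlapped by 1 mouse of each (log2 fold change 0.24, SE 0.09, edgeR adjusted p = 0.0691), and Ipo9 passed as higher with the length trend removed (log2 fold change 0.32, edgeR adjusted p = 0.0224). Ipo8, the paralog of Ipo7, had a log2 fold change of 0.12 (SE 0.07). Ipo11 was at -0.11 (SE 0.08), Tnpo3, the receptor of serine-arginine splicing factors, at -0.07 (SE 0.06) and Tnpo2, the paralog of Tnpo1, at 0.03 (SE 0.10). Summed per length, the 11 receptors stood at 78.9 ± 4.13 RPKM in cotadutide mice and 92.0 ± 1.94 RPKM in vehicle mice.

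None of the 7 exportins passed by edgeR (lowest adjusted p = 0.124, 1 with an unadjusted p under 0.05, and 0 by DESeq2 and limma-voom). Over all genes tested by edgeR, 9.34% were called lower, 18.7% in either direction, and 35.7% had an unadjusted p under 0.05. A count of 0 among 7 genes cannot be told apart from such a share. A log2 fold change below 0 was found for 6 of the 7. Without cotadutide mouse 4, Xpo7 was called lower (edgeR adjusted p = 0.0478, log2 fold change -0.25). Xpo1, or CRM1, exports proteins with leucine-rich signals and is the target of selective export inhibitors. Its level was 42.8, 41.5, 44.5, 42.9 and 37.1 CPM in cotadutide mice and 39.6, 39.8, 42.5 and 41.2 CPM in vehicle mice (log2 fold change 0.04, SE 0.07). Cse1l had 31.4, 28.7, 25.04, 35.2 and 32.6 CPM in cotadutide mice and 35.4, 33.8, 33.3 and 38.3 CPM in vehicle mice, with an overlap of the groups (log2 fold change -0.20, SE 0.10, edgeR adjusted p = 0.162). Cse1l had the highest level per length of the exportins, a mean of 6.19 RPKM. Xpot, which exports transfer RNA, and Xpo7 had log2 fold changes of -0.18 each (SE 0.09 and 0.08), and Xpo5, which exports microRNA precursors, had -0.11 (SE 0.12). Xpo6, the exporter of actin, stood at -0.08 (SE 0.09) and Xpo4 at -0.05 (SE 0.20). Of the exon bases of Xpo4, 4.57% also belong to Lats2 on the same strand, which had 5515 counts in all against 607 for Xpo4. Summed per length, exportins were 23.9 ± 1.79 RPKM in cotadutide mice and 26.0 ± 0.342 RPKM in vehicle mice, with an overlap. The ratio of beta family import receptors to exportins was 3.31 ± 0.122 in cotadutide mice and 3.54 ± 0.0588 in vehicle mice, without overlap. This ratio reuses the values of the called import receptors.

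Of the 23 tested pore genes, 2 fell and 21 did not pass, a share near the 9.34% called lower among all genes tested. Nup210 encodes a membrane glycoprotein of the pore that is induced when mouse myoblasts differentiate. It had 5.76, 2.05, 4.84, 3.91 and 4.47 CPM in cotadutide mice and 7.47, 9.46, 6.83 and 9.29 CPM in vehicle mice. The groups did not overlap, and the fold of 1.96 times lower was the largest among the members (log2 fold change -0.97, SE 0.23, edgeR adjusted p = 0.0223), at a low level. The call held in 7 of 9 fits with a mouse left out, and adjustment for the muscle score gave a log2 fold change of -0.66 (SE 0.34). Nup210 lies on chromosome 6 from 91013068 to 91116829. Nup93, an adaptor of the inner ring, was just inside the threshold at an edgeR adjusted p of 0.0489. Its values were 7.41, 5.13, 5.83, 5.62 and 6.47 CPM in cotadutide mice and 8.13, 7.85, 8.13 and 7.83 CPM in vehicle mice, without overlap (1.31 times lower, log2 fold change -0.39, SE 0.12). The call held in 1 of 9 fits with a mouse left out, that without cotadutide mouse 1. It was lost without a filter on low counts (edgeR adjusted p = 0.0636) and with the length trend removed (edgeR adjusted p = 0.0531).

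**Figure D5:**
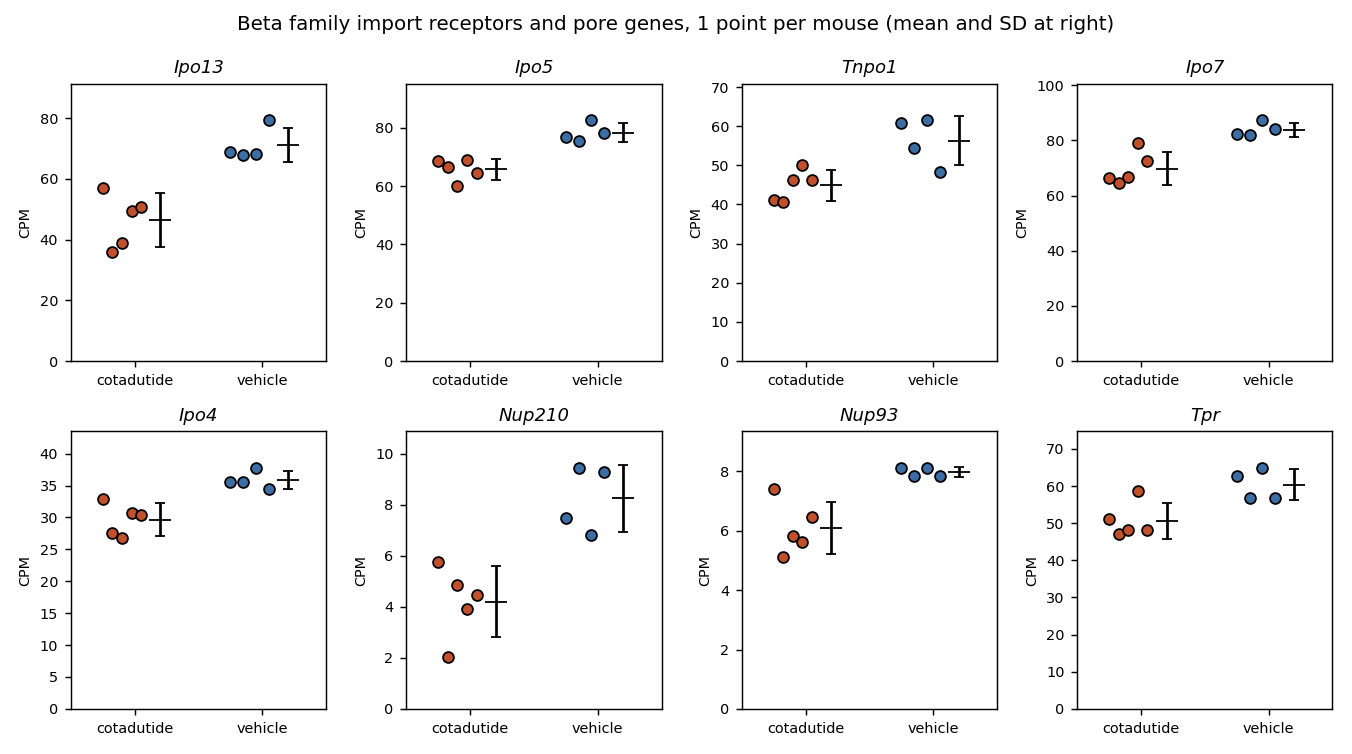
Level in CPM of the 5 beta family receptors and 2 pore genes called lower, and of Tpr, which missed the threshold, with 1 point per mouse and the mean and SD beside each group (n = 5 cotadutide, n = 4 vehicle). Vehicle mouse 4 is the highest for Ipo13 and the lowest for Tnpo1 within its group.

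Tpr, the filament protein of the nuclear basket, was just outside the threshold. It had 51.2, 47.1, 48.1, 58.8 and 48.1 CPM in cotadutide mice and 62.8, 56.8, 65.0 and 56.7 CPM in vehicle mice, and cotadutide mouse 4 lay within the vehicle range (log2 fold change -0.25, SE 0.08, edgeR adjusted p = 0.0576; DESeq2 adjusted p = 0.0433). Nup153, which anchors the basket, had 17.9 ± 2.53 CPM in cotadutide and 22.5 ± 3.01 CPM in vehicle mice (log2 fold change -0.33, SE 0.12, edgeR adjusted p = 0.0747). Nup153 was called lower without a filter on low counts (edgeR adjusted p = 0.0409), without cotadutide mouse 5 and without vehicle mouse 4. The third basket gene, Nup50, had a log2 fold change of 0.05 (SE 0.08).

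On the cytoplasmic side none of 4 genes passed by edgeR, limma-voom or DESeq2, and 0 had an unadjusted p under 0.05 by edgeR. Among all genes tested, edgeR called 18.7% in either direction, and 35.7% had an unadjusted p under 0.05. Ranbp2, the large filament protein that binds Ran and SUMO-modified RanGAP1, had 42.1, 35.6, 42.1, 51.0 and 41.3 CPM in cotadutide mice and 44.0, 48.0, 50.8 and 45.3 CPM in vehicle mice, with an overlap (log2 fold change -0.15, SE 0.10). Nup98, whose precursor also yields the Y complex protein Nup96, had a log2 fold change of -0.16 (SE 0.10). Nup88 stood at -0.07 (SE 0.08) and Nup214 at 0.01 (SE 0.08).

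The symbol rule took 6 genes of the Y complex, the outer scaffold, and edgeR, limma-voom and DESeq2 called 0 of them. Over all genes tested by edgeR, 18.7% were called in either direction. An unadjusted p under 0.05 was found for 1 of the 6, against 35.7% of all genes. That gene, Nup37, was the 1 member higher under cotadutide without overlap, with 7.77, 8.33, 7.19, 7.05 and 7.04 CPM in cotadutide mice and 6.57, 5.63, 5.24 and 6.75 CPM in vehicle mice (log2 fold change 0.30, SE 0.12, edgeR adjusted p = 0.0957). Nup107 had a log2 fold change of 0.14 (SE 0.15), Nup43 of 0.09 (SE 0.15), Nup85 of 0.01 (SE 0.09), Nup133 of -0.11 (SE 0.09) and Nup160 of -0.17 (SE 0.14). Summed per length, these 6 genes stood at 17.2 ± 0.866 RPKM in cotadutide mice and 16.1 ± 0.762 RPKM in vehicle mice. Nup85 was the highest of the 6, at a mean of 5.62 RPKM. The sum is not of the whole complex. The Y complex gene Ahctf1 lies outside the symbol rule and was called lower (edgeR adjusted p = 0.0432).

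In the inner ring, beside Nup93, Nup205 had a log2 fold change of -0.27 (SE 0.11, edgeR adjusted p = 0.113), Nup155 of -0.20 (SE 0.10), Nup35 of -0.06 (SE 0.11) and Nup188 of 0.16 (SE 0.10). Nup205 was at 15.9 CPM in vehicle mouse 4 and at 20.8 to 23.8 CPM in the other vehicle mice, and leaving out that mouse put it past the threshold (edgeR adjusted p = 0.0151, log2 fold change -0.37). In the central channel, Nup62 and Nup54, whose repeats form the permeable mesh, had log2 fold changes of -0.03 and -0.02 (SE 0.11 each). Nup62 had 26.5, 18.7, 22.7, 19.4 and 20.8 CPM in cotadutide mice and 21.7, 24.1, 20.3 and 22.5 CPM in vehicle mice, so the vehicle range lay inside the cotadutide range. Of its exon bases, 82 lie opposite exons of Atf5, which had 48913 counts in all against 3601 for Nup62, so some of its reads may be uncertain. The same holds for Nup35, which shares 131 exon bases on the same strand with Dusp19 (1850 counts against 1162 for Nup35). In the membrane ring, the anchor Ndc1 was at 18.9 ± 2.01 CPM in cotadutide and 17.5 ± 1.87 CPM in vehicle mice (log2 fold change 0.11, SE 0.11). Aaas, which encodes ALADIN and is mutated in human triple A syndrome, was at 9.63 ± 1.02 CPM in cotadutide and 9.11 ± 0.532 CPM in vehicle mice (log2 fold change 0.08, SE 0.11). Nup62cl had 16 counts over the cotadutide libraries and 21 over the vehicle libraries, and Nup210l had 29 over the cotadutide libraries and 37 over the vehicle libraries, so neither was tested. Summed over the 25 pore genes, the level per length was 73.0 ± 2.64 RPKM in cotadutide mice and 75.1 ± 1.39 RPKM in vehicle mice, with overlap. Summed over the 24 receptors it was 135.7 ± 9.63 RPKM in cotadutide mice and 164.8 ± 2.73 RPKM in vehicle mice, without overlap.

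The spread between mice also differed. The median coefficient of variation of the 46 members was 10.3% among cotadutide mice and 6.42% among vehicle mice. It was not computed over all genes tested, so it is not known whether this difference is particular to the members. For Kpna1 the SD was 7.86 CPM among cotadutide mice and 0.88 CPM among vehicle mice. Cotadutide mouse 5 had the smallest library, 10.8 M counts, and vehicle mouse 1 the largest, 25.1 M counts.

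Neighbouring genes of the pathway outside the symbol rule showed 2 calls among 35 tested, where 18.7% of all genes tested were called in either direction. Of 7 genes of the Ran cycle 0 passed by edgeR, and 0 had an unadjusted p under 0.05. Ran itself was at 99.5 CPM in cotadutide and 103.2 CPM in vehicle mice (log2 fold change -0.05, SE 0.09), and its activating factor Rcc1 at 7.37 CPM in cotadutide and 8.74 CPM in vehicle mice (log2 fold change -0.24, SE 0.15). Of 8 further pore genes 1 fell, Ahctf1, which encodes the chromatin-binding Y complex protein ELYS (22.1 CPM in cotadutide and 26.9 CPM in vehicle mice, log2 fold change -0.29, SE 0.09, edgeR adjusted p = 0.0432). Of 16 mRNA export genes 1 rose, the THO complex gene Thoc3 (38.9 CPM in cotadutide and 31.9 CPM in vehicle mice, log2 fold change 0.29, SE 0.08, edgeR adjusted p = 0.0296), while the general export factor Nxf1 had a log2 fold change of 0.01 (SE 0.07). Of 4 tested cargo adaptors and further receptors 0 passed, and 0 had an unadjusted p under 0.05.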

How the data were processed

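Per the file headers, the authors deposited a table of raw counts for each library, with 1 value per Ensembl gene. The submitters' processing notes list STAR 2.5.2b, Subread 1.5.2 with featureCounts, Trimmomatic 0.36, bcl2fastq 2.17 and the mm10 build. The counting options, strand use and gene set were not given in the sources used here, so reads of overlapping and antisense genes could not be told apart. Per the labels' protocols, 30 mg of tissue was homogenized, the fat layer of the homogenate was removed, and NEBNext Ultra libraries were made.

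A gene name table gave symbols for 48970 of 49315 identifiers, and GENCODE M21 gave biotypes. Totals were 10.8 to 25.1 M counts (M, 1000000), which sets the counting error. filterByExpr kept 14747 genes, and totals were scaled with TMM factors. The test was edgeR 4.0.16 in R 4.3.3 (glmQLFit, robust, glmQLFTest) on all 9 libraries with treatment as the only term, adjusted by Benjamini-Hochberg. SE is the log2 fold change over the square root of F. Fits were checked on simulated counts. Separate mice were the replicates, and each pair of libraries within a group differed beyond counting noise (lowest chi-square per degree of freedom 12.2).

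Alternatives were other size factors and filters, DESeq2 1.42.0, limma-voom 3.58.1, no mitochondrially encoded genes, a lowess length trend removed (span 0.3), a muscle score as covariate, a mouse number block, and each mouse left out. Members and lists (role groups, the Ran cycle, other pore, mRNA export and adaptor genes, and markers of brown adipocytes, muscle, macrophages, endothelial cells, fibroblasts, T cells, cycling cells and nuclear-retained RNA) were chosen with earlier results of these data known. Named genes were the called members of each role group, at most 4, its member with the highest level per length, a fixed set of well-known members, and members too low to test. The others are given so that each member has a value.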

Additional observations from a re-analysis of the deposited data

Results flagged for a closer look

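In 5 of 92 sets of values (46 tested members in each of 2 groups), 1 mouse lay apart from the rest of its group, where chance gives about 1 in 20 sets, or 4.6. Ipo13 was 79.4 CPM in vehicle mouse 4, while the remaining vehicle mice had 68.0 to 68.7 CPM, and that mouse also had the highest muscle score. Cotadutide mouse 4 was high for Xpo6, at 27.6 CPM where the remaining cotadutide mice had 22.1 to 23.5 CPM, and for Nup214, at 16.5 CPM against 14.1 to 14.6 CPM. Cotadutide mouse 2 was low for Nup160, at 4.42 CPM against 5.48 to 5.89 CPM, and for Nup35, at 5.96 CPM against 6.99 to 7.41 CPM.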

How the results depend on the processing

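The number of members called lower, 11, stayed within 1.5 times under other size factors, both other filters, no mitochondrial genes, limma-voom and DESeq2 (11 to 13) and with the gene length trend removed (8, without Ipo7, Ipo4 and Nup93, with 1 called higher, Ipo9). Without a filter, Nup153 took the place of Nup93 among the 11. The median log2 fold change was -0.07 with the length trend removed. With the muscle score as covariate the median was -0.09, 0 members were called lower, and all genes had 0 calls too. Leaving out each mouse gave 1 to 13 lower and 0 higher, and a median log2 fold change of -0.22 (without cotadutide mouse 4) to -0.11. Kpna3 passed in each of these 9 fits. With the mouse number as a replicate block, on mice 1 to 4 of each group, 5 were lower (Kpna1 to Kpna4 and Ipo13; 6% of all genes), against 11 in the same mice without it. The numbers gave no pairing: deviations of same-numbered mice correlated across genes at 0.135, -0.04, 0.0229 and -0.0107, and not every mouse correlated best with its own number.

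No called member changed sign. Uncalled members did, among them Cse1l (-0.20) and Nup188 (0.16), and the cause was not tested. With the length trend removed, the log2 fold changes were 0.042 for Tnpo3, 0.039 for Xpo6, 0.020 for Xpo4, -0.035 for Aaas and 0.0065 for Nup88. Without a filter they were -0.018 for Tnpo2, -0.0079 for Xpo1, -0.031 for Nup85 and -0.035 for Nup214. With the muscle covariate they were -0.078 for Tnpo2, 0.037 for Cse1l, -0.039 for Xpo1, 0.16 for Xpo4, -0.11 for Nup188, 0.0035 for Nup35, 0.069 for Nup62, -0.043 for Aaas and 0.078 for Nup88. Under the block they were -0.011 for Tnpo2, -0.015 for Nup85 and -0.013 for Nup214. Without mitochondrial genes they were -0.011 for Nup85 and -0.016 for Nup214. With the stricter filter it was -0.0029 for Nup214. Leaving out mice spanned -0.052 to 0.090 for Tnpo2, -0.010 to 0.050 for Xpo1, -0.15 to 0.037 for Xpo4, -0.024 to 0.13 for Nup43, -0.056 to 0.065 for Nup85, -0.15 to 0.012 for Nup62, -0.092 to 0.033 for Nup54 and -0.056 to 0.030 for Nup214. Depth limits Kpna7, Nup62cl and Nup210l, which had too few counts to test.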
